A study of Rattus norvegicus with 9 samples.

Results

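The genes described here encode the translation initiation and elongation factors of rat H9c2(2-1) cells, the proteins that load a ribosome onto an mRNA and drive it along the message. They were taken as all protein-coding genes whose RefSeq symbol starts with Eif or Eef followed by a digit up to 6, which gave 75 of the 36856 genes with a transcript in the deposited tables. H9c2(2-1) is a myoblast line derived from embryonic BD1X rat heart, and the labels give its genotype as WT. The study sequenced 3 groups of 3 libraries, all grown in DMEM with 10% FBS. The ESW cells received energized structured water, the CW cells received control water, and the Control cells received neither. Both waters were used at a dilution of 0.01 for 72 h, with fresh medium every 24 h. The question set by the design is how the RNA of cells given the structured water differs from that of cells given ordinary water or left untreated. All groups are a single cell line in culture, and nothing in the labels says whether separate cultures gave the libraries within a group. The p-values therefore reflect no more than the variation among these samples, part or all of which could be technical.

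Initiation begins when eIF2, a complex of the alpha, beta and gamma subunits, brings the initiator methionyl-tRNA to the small ribosomal subunit together with eIF1, eIF1A, eIF3 and eIF5. The cap-binding complex eIF4F recruits the mRNA, the assembly scans for a start codon, and eIF5B joins the large subunit. Elongation then runs on eEF1A, which delivers aminoacyl-tRNAs and is recharged by the eEF1B exchange complex, and on eEF2, which moves the ribosome by a codon. Phosphorylation of the alpha subunit of eIF2 by stress kinases blocks its exchange factor eIF2B and lowers initiation in general, while 4E-BP proteins hold the cap-binding protein eIF4E away from eIF4G. The files measure RNA only, not protein, phosphorylation or translation rate. Bulk RNA of this kind gives relative levels, and fewer cells of a type and less RNA per cell cannot be told apart in it.

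The libraries held 26748673 to 48574618 estimated reads, and the factor genes took 2.16% to 2.32% of them. Levels are given as CPM, the reads of a gene scaled to a common library total, for the same gene across libraries, and as TPM, which also divides by transcript length, between genes. Fold changes are log2 values with their SE from the quasi-likelihood test of edgeR over 14706 genes, and a gene is said to rise or fall where the Benjamini-Hochberg adjusted p was under 0.05. The line's mesenchymal character was plain, with all 6 fibroblast and mesenchymal markers at 1 CPM or more in every library. Of 8 cardiac markers, 6 (Nppa, Nppb, Myh6, Myh7, Actc1 and Nkx2-5) stayed under 1 CPM in every library. The other 2 did not, with Tnnt2 at 51.4 to 62.3 CPM and Gata4 at 4.81 to 6.45 CPM. All 5 blood markers stayed under 1 CPM in every library. Of the 4 epithelial markers, Krt8 had 49.2 to 64.6 CPM and 3 stayed under 1 CPM in every library. Of the 8 muscle markers, 5 reached 1 CPM in every library. The summed muscle markers were 115 to 127 CPM in ESW, 90.9 to 97.1 CPM in CW and 89 to 94.6 CPM in Control. The summed mesenchymal markers were 83119.9 to 86101.3 CPM in ESW, 70493.8 to 74879.8 CPM in CW and 69611.1 to 73561.5 CPM in Control. All 6 mesenchymal and 2 of the 8 muscle markers were called in a comparison. Both marker sums were higher in ESW. Most of the difference in the muscle sum came from the myosin gene Myh1, at a mean of 74.2 CPM in ESW, 52.4 CPM in CW and 48 CPM in Control, while Des, which encodes desmin, averaged 4.55 CPM in ESW, 5.06 CPM in CW and 5.77 CPM in Control, and their part in the changes of the factor genes was not tested.

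The factor genes as a group held similar shares of the transcriptome in all conditions. They made up 2.177%, 2.142% and 2.134% of TPM in the ESW libraries, 2.196%, 2.152% and 2.142% in the CW libraries, and 2.17%, 2.179% and 2.155% in the Control libraries, so the groups overlapped. The level ranged widely between genes: 33 members averaged 100 TPM or more over the 9 libraries, 63 reached 10 TPM, and 68 reached 1 TPM. Eef1a1, which encodes the main form of eEF1A, averaged 7806.7 TPM, 36.1% of the TPM of all members, and ranked 7 among all genes. It was followed by Eef1g, a subunit of the exchange complex, at 1296.8 TPM and by Eef2 at 1294.5 TPM, which ranked 117 and 118 among all genes. Eif1, a scanning factor, stood at 1134.8 TPM and Eif5a, a factor that relieves stalled ribosomes, at 1042.3 TPM.

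**Figure D1:**
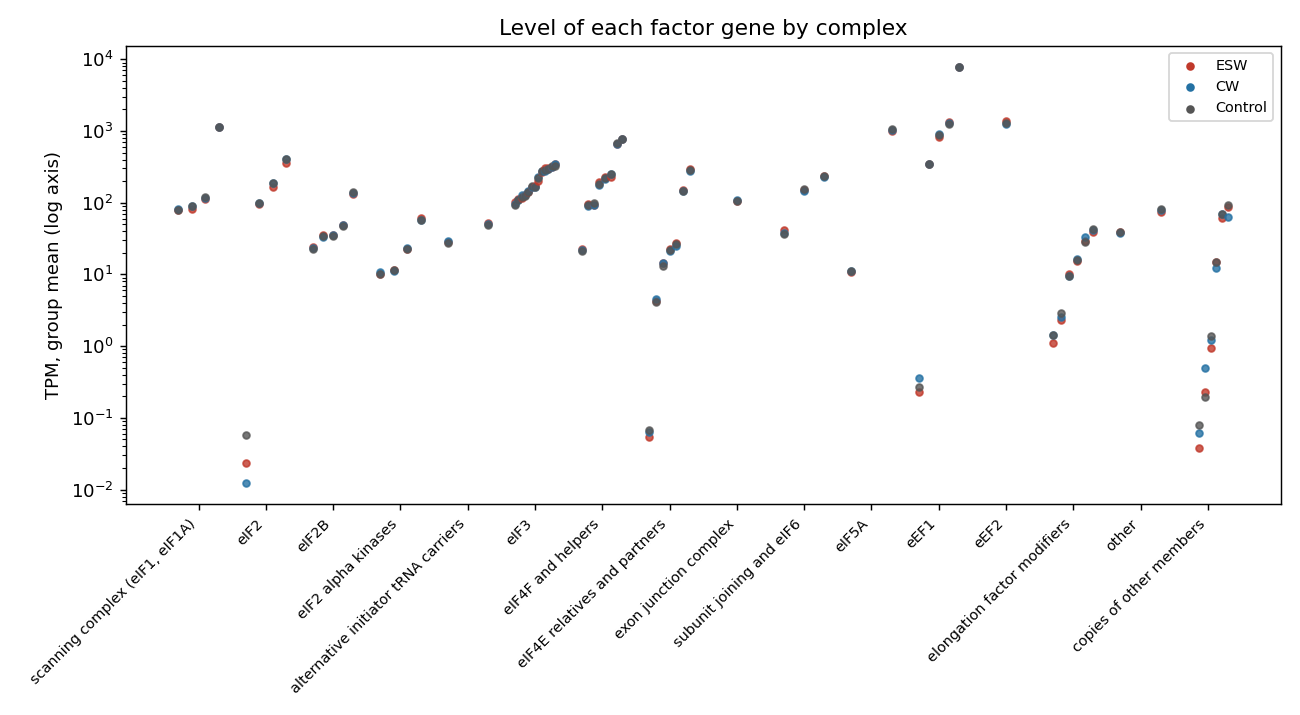
TPM of each factor gene on a log axis, arranged by factor complex, with 1 point for the mean of each group (ESW, CW and Control, n = 3). Eef1a1 lies highest, near its mean of 7806.7 TPM, the group points of a gene mostly coincide, and the members listed at 0 are not drawn.

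Between complexes, the eEF1 genes held 47.8% of the factor TPM, the 13 eIF3 genes 12.4%, the 8 genes of eIF4F and its helpers 10.7%, the eIF2 genes 3.11%, and the 5 eIF2B genes 1.29%. Within eIF3 the subunits ran from 98.1 TPM for Eif3b to 342 TPM for Eif3k. The tissue-restricted relatives were at trace level: Eef1a2, the eEF1A form of mature muscle and neurons, averaged 0.285 TPM, and Eif4e1b, a germline relative of eIF4E, averaged 0.0617 TPM. Of the members, 4 were too low to test: Eif1l1 and Eif5-ps7 had no read in any library, Eif2s3y had 8 reads in all and Eif5-ps6 had 23, which left 71 for the comparisons.

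In ESW against Control, 7 of the 71 tested factor genes changed, or 9.86%, where 8.04% of all 14706 tested genes were called. Of these, 1 rose, where 4.76% of all genes rose, and 6 fell, where 3.28% of all genes fell. The median log2 change of the factor genes was -0.03, against -0.01 for all tested genes, and the median size of change was 0.06, against 0.10. In ESW against CW, 10 of 71 changed, or 14.1%, where 8.14% of all genes were called. Of these, 6 rose, where 4.15% of all genes rose, and 4 fell, where 3.99% fell, and the median size of change was 0.05, against 0.10 for all genes. In CW against Control, 1 of 71 changed, or 1.41%, where 0.177% of all genes were called. It fell, as did 0.15% of all genes, while 0.0272% rose. The comparisons of ESW with Control and with CW share the ESW libraries, so a gene called in both is not 2 independent observations. Apart from the near copies of Eef1a1, the called changes lay between -0.26 and 0.15 on the log2 scale. The 7 calls against Control became 2 without ESW replicate 3, 4 without ESW replicate 2, CW replicate 3 or Control replicate 2, 3 without Control replicate 3, and 3 with transcript length offsets. The 10 calls against CW became 3 without ESW replicate 2 or CW replicate 2 and 4 without ESW replicate 3 or CW replicate 3.

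At an unadjusted p under 0.05, the factor genes counted 17 in ESW against Control, where 22.8% of all genes passed, 18 in ESW against CW, where 23.9% passed, and 10 in CW against Control, where 9.87% passed. The groups did not overlap for 17 factor genes in ESW against Control, 5 higher and 12 lower, or 23.9%, where the share of all genes was 25.6%, with 13.3% higher and 12.4% lower. In ESW against CW this held for 13 factor genes, 6 higher and 7 lower, or 18.3%, where the share of all genes was 28.3%, with 14.9% higher and 13.4% lower. In CW against Control it held for 13, 3 higher and 10 lower, or 18.3%, where the share of all genes was 14.7%, with 7.13% higher and 7.56% lower. The non-overlapping share of factor genes was close to that of all genes in ESW against Control, below it in ESW against CW and above it in CW against Control. The called share in ESW against Control, 9.86% against 8.04%, was also close to that of all genes. It was above that of all genes in ESW against CW, where 2 of the 10 calls were near copies of Eef1a1. In CW against Control it rested on 1 such copy. No test compared these shares.

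**Figure D2:**
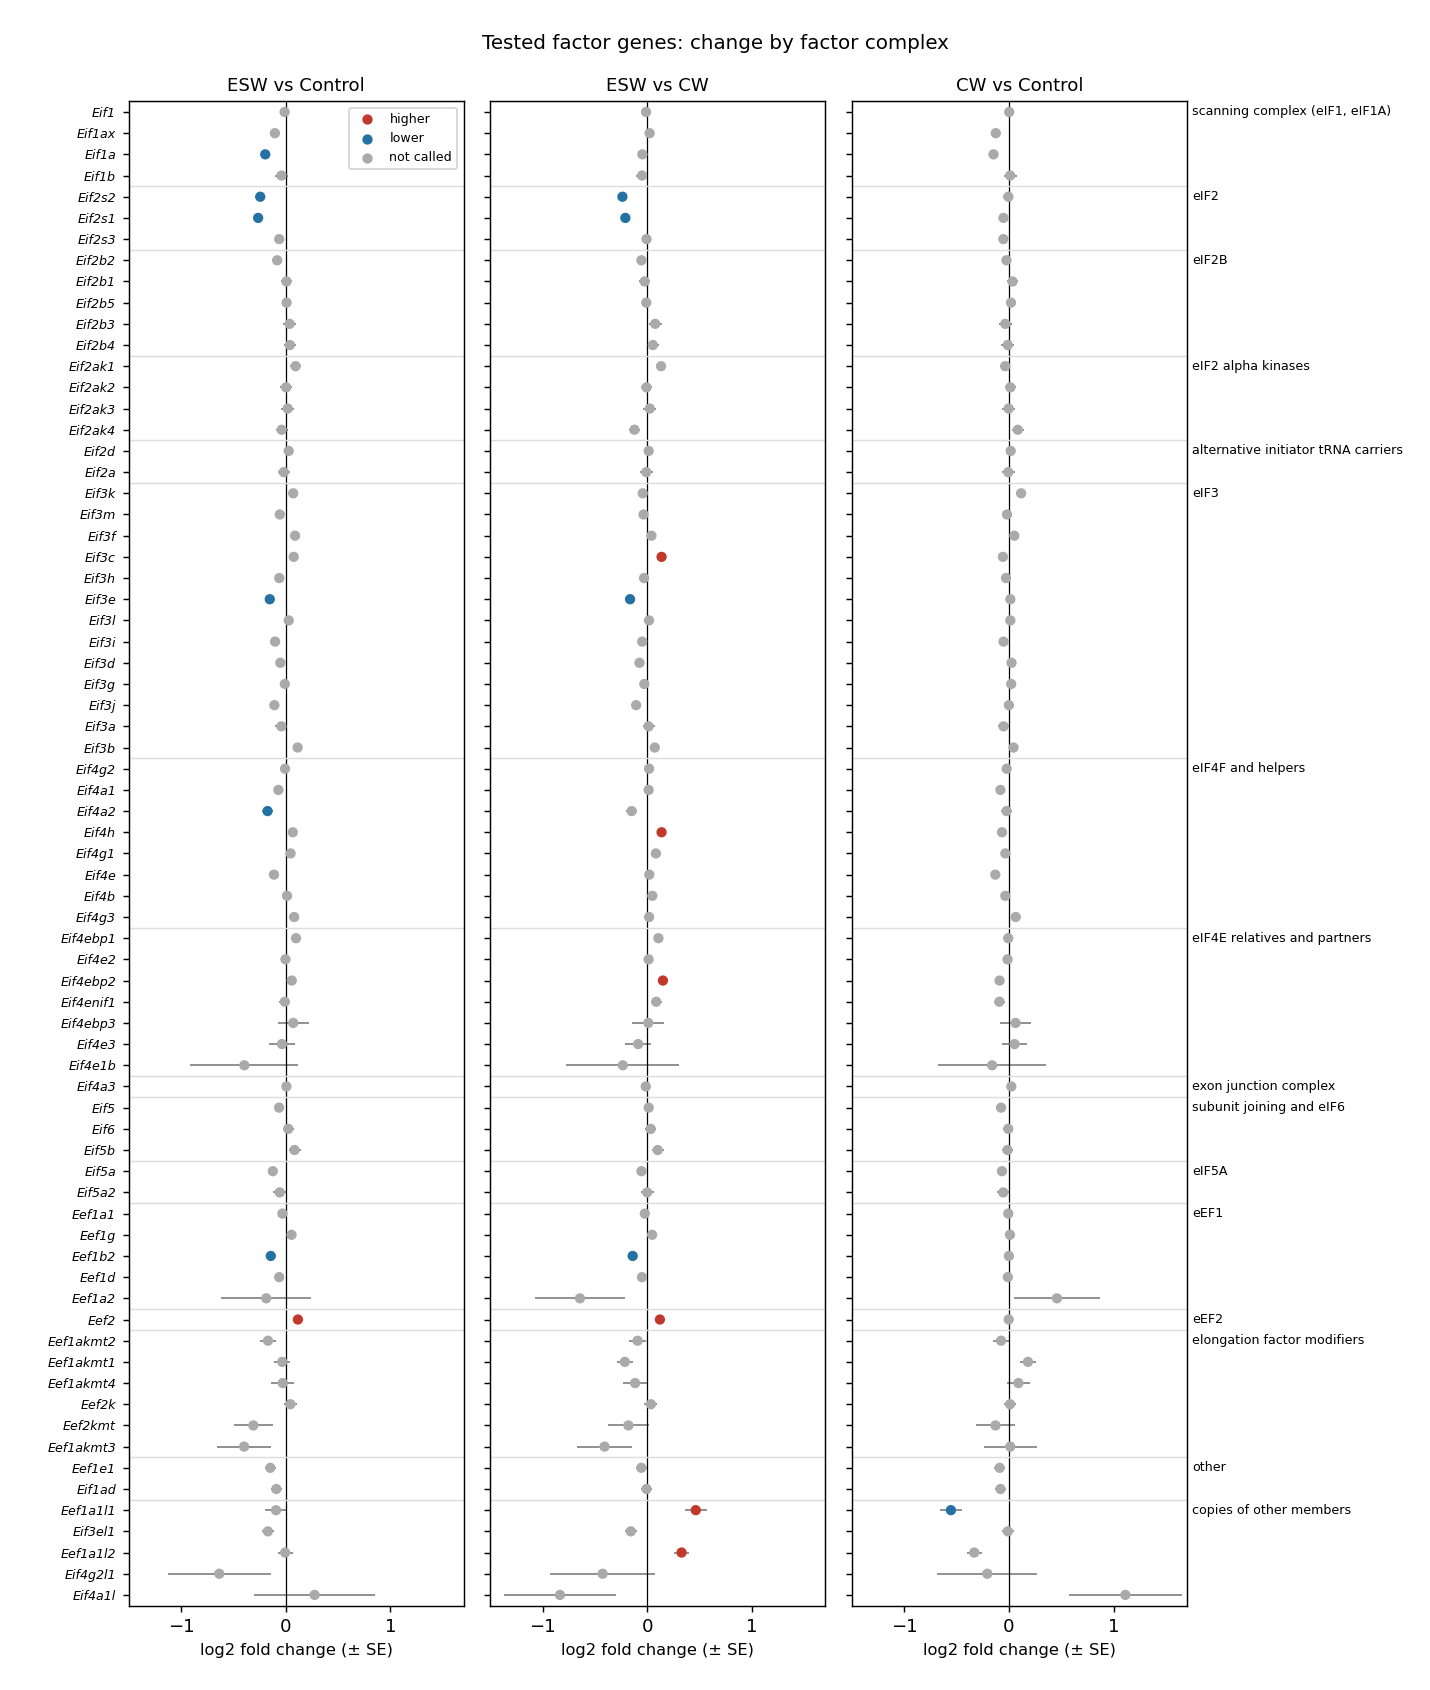
Log2 fold change with SE of the 71 tested factor genes in 3 comparisons, arranged by factor complex. Red points rose, blue points fell and grey points were not called at an adjusted p of 0.05; most grey points lie close to 0 and the wide bars belong to genes with few reads.

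The largest called decreases of factor genes in both ESW comparisons were in the eIF2 complex. Eif2s1, which encodes the alpha subunit that the stress kinases phosphorylate, had 112, 118 and 110 CPM in the ESW libraries, 131, 133 and 131 CPM in the CW libraries, and 131, 141 and 138 CPM in the Control libraries. All 3 ESW libraries were below every CW and Control library, and CW and Control overlapped. Eif2s1 fell by 0.26 on the log2 scale in ESW against Control (SE 0.04, adjusted p = 0.000777) and by 0.21 in ESW against CW (SE 0.04, adjusted p = 0.00481). In CW against Control the log2 change was -0.05 (adjusted p = 0.723). Both ESW calls for Eif2s1 held under all 19 alternative settings, with log2 changes of -0.29 to -0.21 against Control and -0.24 to -0.19 against CW.

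Eif2s2, which encodes the beta subunit that contacts eIF5 and eIF2B, had 276, 279 and 251 CPM in ESW, 332, 311 and 308 CPM in CW, and 304, 315 and 336 CPM in Control. Again no ESW library reached the lowest library of the other groups. Eif2s2 fell by 0.24 in ESW against Control (SE 0.05, adjusted p = 0.00369) and by 0.24 in ESW against CW (SE 0.05, adjusted p = 0.00547), and its log2 change in CW against Control was -0.01 (adjusted p = 0.983). The call against Control was lost with offsets for the average transcript length of each library (log2 change -0.19, adjusted p = 0.0553), and the call against CW held under all settings. Eif2s3, the X-linked gene of the gamma subunit that binds the tRNA and GTP, had 157, 164 and 158 CPM in ESW, 163, 161 and 159 CPM in CW, and 168, 169 and 164 CPM in Control. Its groups were close, with log2 changes of -0.06 in ESW against Control (SE 0.04, adjusted p = 0.326) and -0.01 in ESW against CW (SE 0.04, adjusted p = 0.919).

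Ratios per length set the subunits beside each other. Those over Eif2s3 divide genes called lower in ESW by a gene that was not called, so they repeat those calls. No test compared the changes of the subunits. The TPM ratio of Eif2s1 to Eif2s3 was 1.78, 1.68 and 1.69 in ESW, 1.87, 1.93 and 1.96 in CW, and 1.78, 1.95 and 1.99 in Control, so that only 1 Control library came down to the ESW range. Relative to Eif2s3, the TPM of Eif2s2 stood at a mean ratio of 3.68 ± 0.20 in ESW, 4.16 ± 0.06 in CW and 4.04 ± 0.33 in Control (SD, n = 3 each), and the ESW and Control libraries overlapped. Between the alpha and beta genes, the ratio of Eif2s2 TPM to Eif2s1 TPM was 2.14 ± 0.06 in ESW, 2.17 ± 0.08 in CW and 2.12 ± 0.08 in Control (SD, n = 3 each), with all groups overlapping. Summed over its subunits, eIF2 had 619 ± 22.9 TPM in ESW, 704 ± 20.9 TPM in CW and 695 ± 28.8 TPM in Control (SD, n = 3 each). The share of Eif2s3 TPM given to its shorter transcript of 2843 bases was 70.8% to 74.4% in ESW, 77.1% to 78.8% in CW and 73.6% to 78.7% in Control, while Eif2s1 has 1 transcript in the tables.

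**Figure D3:**
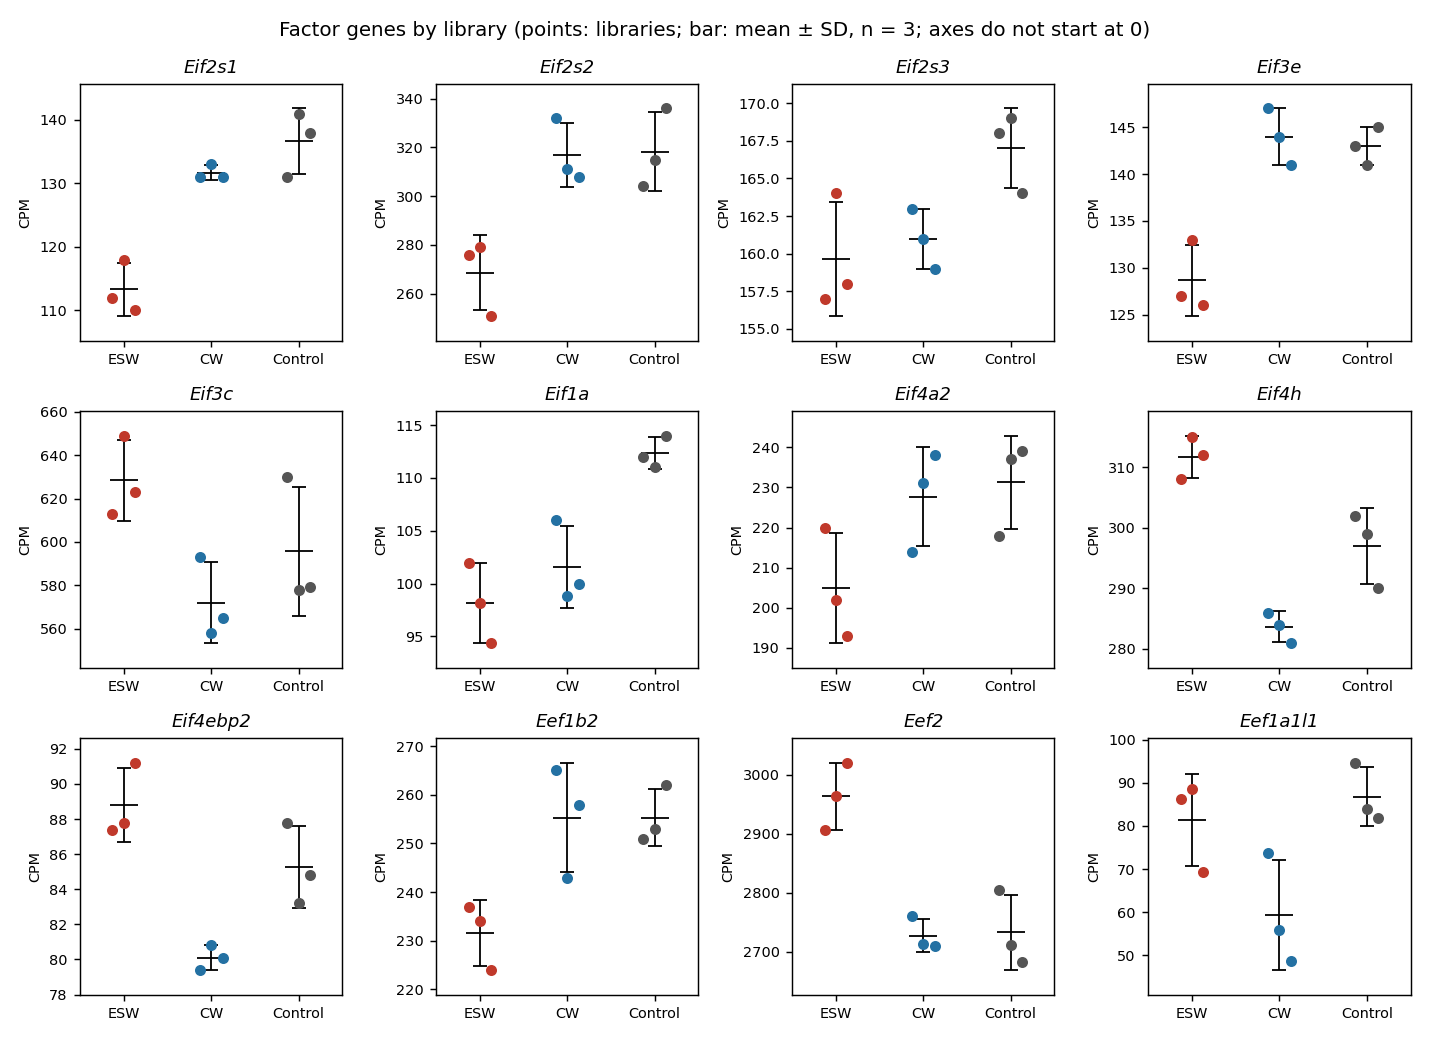
CPM of 12 factor genes in each library (points) for ESW, CW and Control, with bars for the mean and SD (n = 3); the axes do not start at 0. The ESW points of Eif2s1, Eif2s2 and Eif3e lie below all others, those of Eef2 lie above all others, and those of Eif2s3 overlap the CW points.

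The promoters of the 3 eIF2 genes are shown because 2 of these genes fell in ESW and the other did not. These are the 150 bases before the annotated start, from RefSeq on the GRCr8 build, each read along its gene's strand. Eif2s1 is at chr6:103405730-103405879 on the plus strand, Eif2s2 at chr3:163855571-163855720 on the minus strand, and Eif2s3 at chrX:62933700-62933849 on the minus strand. Capitals mark matches on either strand to the E-box CACGTG, the ETS motif CCGGAAG, the GC box GGGCGG or CCAAT.
Eif2s1: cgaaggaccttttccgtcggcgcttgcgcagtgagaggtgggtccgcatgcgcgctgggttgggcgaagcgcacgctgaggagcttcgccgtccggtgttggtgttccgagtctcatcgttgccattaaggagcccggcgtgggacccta
Eif2s2: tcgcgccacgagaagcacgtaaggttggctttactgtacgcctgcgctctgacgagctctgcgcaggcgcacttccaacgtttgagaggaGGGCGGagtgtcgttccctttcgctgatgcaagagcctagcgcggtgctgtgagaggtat
Eif2s3: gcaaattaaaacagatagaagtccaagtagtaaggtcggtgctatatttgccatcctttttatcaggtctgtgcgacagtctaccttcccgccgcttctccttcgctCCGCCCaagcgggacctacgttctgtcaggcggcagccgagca

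Eif2s2 and Eif2s3 each hold a GC box in these bases, and Eif2s1 holds none of the 4 motifs there. Over the longer window of 250 bases before to 50 after the start, which 66 of the 75 members have in the table, 65.2% of members hold a GC box against 34.9% of 27457 genes. The ETS motif was in 31.8% of member windows against 9.2% of all, the E-box in 18.2% against 6.7%, and CCAAT in 31.8% against 37.7%. In that longer window Eif2s1 holds 1 GC box and 1 CCAAT. The 27457 genes were not limited to the 14706 tested here, while most members were tested. Shares among tested genes alone were not counted, so these gaps are not shown to be particular to the factor genes. These are descriptions of letters in a window, not of bound sites.

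Around eIF2, no gene of its exchange factor or of its kinases passed the test. The 5 genes of eIF2B, which recharges eIF2 with GTP, had log2 changes of -0.08 to 0.04 in ESW against Control and -0.06 to 0.08 in ESW against CW, with the lowest adjusted p at 0.305 and 0.491. Their summed level was 277 ± 2.51 TPM in ESW, 280 ± 3.60 TPM in CW and 280 ± 7.25 TPM in Control (SD, n = 3 each). Eif2b5, the catalytic epsilon subunit, averaged 60 ± 1.46 CPM in ESW, 60.4 ± 1.88 CPM in CW and 59.7 ± 2.11 CPM in Control (SD, n = 3 each). Of the kinases, Eif2ak1, which responds to heme shortage and mitochondrial stress, was the most abundant at 59.1 TPM and averaged 95.2 ± 1.92 CPM in ESW, 87.1 ± 6.68 CPM in CW and 89.1 ± 3.71 CPM in Control (SD, n = 3 each). Its log2 change was 0.10 in ESW against Control (adjusted p = 0.261) and 0.13 in ESW against CW (adjusted p = 0.111), and without CW replicate 1 the log2 change in ESW against CW was 0.19 (adjusted p = 0.0196). Eif2ak3, the kinase of the endoplasmic reticulum known as PERK, averaged 32.2 ± 2.54 CPM in ESW, 31.6 ± 1.39 CPM in CW and 31.8 ± 1.79 CPM in Control (SD, n = 3 each). Eif2ak4, the amino acid sensor GCN2, had log2 changes of -0.04 and -0.12 in the ESW comparisons with Control and CW (adjusted p = 0.740 and 0.190), and the antiviral kinase Eif2ak2 had 0.01 and -0.01 (adjusted p = 0.974 and 0.950).

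Of the 6 genes listed as partners of this pathway, 1 rose and 1 fell in ESW against Control, where 8.04% of all genes were called, and 2 fell in ESW against CW, where 8.14% were called. Ddit3, which encodes the stress transcription factor CHOP, had 35.2, 35.8 and 32.4 CPM in ESW, 41.2, 39.7 and 39.5 CPM in CW, and 39.6, 43.4 and 42.9 CPM in Control. It fell by 0.28 in ESW against Control (SE 0.05, adjusted p = 0.00331) and by 0.22 in ESW against CW (SE 0.06, adjusted p = 0.0194). Both Ddit3 calls were lost with length offsets (adjusted p = 0.0502 and 0.0554), and that against CW also without ESW replicate 3 or any CW library (adjusted p = 0.0570 to 0.107). Atf4, the transcription factor whose translation rises when eIF2 is phosphorylated, had a log2 change of -0.09 in ESW against Control (adjusted p = 0.120) and -0.06 in ESW against CW (adjusted p = 0.321). Gcn1, the ribosome-bound activator of GCN2, rose by 0.17 in ESW against Control (SE 0.04, adjusted p = 0.0228) with 183 ± 6.68 CPM in ESW and 163 ± 8.89 CPM in Control (SD, n = 3 each). The Gcn1 call was lost with length offsets (adjusted p = 0.104) and without ESW replicate 1 or 3 or Control replicate 1 or 2 (adjusted p = 0.0538 to 0.139). Impact, an inhibitor of GCN2 activation, fell by 0.34 in ESW against CW (SE 0.07, adjusted p = 0.00693) with 40.3 ± 2.80 CPM in ESW and 50.8 ± 2.72 CPM in CW (SD, n = 3 each), and its log2 change against Control was -0.16 (adjusted p = 0.162). The Impact call was lost with length offsets (adjusted p = 0.0601).

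Among the scanning factors that sit with eIF2 on the small subunit, Eif1a fell in ESW against Control. Eif1a had 102, 98.2 and 94.4 CPM in ESW, 106, 98.8 and 100 CPM in CW, and 112, 111 and 114 CPM in Control. Both water groups lay below all Control libraries and overlapped each other. Eif1a fell by 0.20 in ESW against Control (SE 0.04, adjusted p = 0.00769), and its log2 change was -0.05 in ESW against CW (adjusted p = 0.554) and -0.15 in CW against Control (adjusted p = 0.212). The call was lost without ESW replicate 3 (adjusted p = 0.0574) and with transcript length offsets (adjusted p = 0.0844). Its close relative Eif1ax, whose reads cannot always be told from those of Eif1a, had log2 changes of -0.10 in ESW against Control (adjusted p = 0.135) and -0.13 in CW against Control (adjusted p = 0.296), and the summed reads of both fell by 0.14 in ESW against Control (adjusted p = 0.0310). Eif1, the start-codon gatekeeper, was level at 498 ± 22.8 CPM in ESW, 503 ± 18.1 CPM in CW and 502 ± 13.6 CPM in Control (SD, n = 3 each).

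eIF3 is the 13-subunit scaffold that holds the small subunit and binds eIF4G. Of its 13 genes, 1 fell in ESW against Control, where 8.04% of all genes were called, 1 rose and 1 fell in ESW against CW, where 8.14% were called, and in CW against Control the lowest adjusted p among them was 0.389. Their summed level was 2683 ± 31.9 TPM in ESW, 2684.1 ± 67.0 TPM in CW and 2649.2 ± 58.1 TPM in Control (SD, n = 3 each), differing by less than the spread between libraries. Eif3e, a core subunit that contacts eIF4G, had 127, 133 and 126 CPM in ESW, 147, 144 and 141 CPM in CW, and 143, 141 and 145 CPM in Control. Every ESW library lay below the rest. It fell by 0.15 in ESW against Control (SE 0.04, adjusted p = 0.0178) and by 0.16 in ESW against CW (SE 0.04, adjusted p = 0.0122).

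The near copy Eif3el1, which averaged 36.1 ± 2.04 CPM in ESW, 40.3 ± 3.26 CPM in CW and 40.6 ± 1.03 CPM in Control (SD, n = 3 each), had log2 changes of -0.17 and -0.16 in ESW against Control and CW (adjusted p = 0.0853 and 0.110). With the reads of Eif3e and Eif3el1 summed, the fall was 0.16 against Control (adjusted p = 0.0115) and 0.16 against CW (adjusted p = 0.00994). Without single libraries the Eif3e call was lost, with an adjusted p of 0.0555 without ESW replicate 1, 0.0926 without ESW replicate 3 and 0.0695 without Control replicate 3 in the comparison with Control, and of 0.0672 without ESW replicate 3 and 0.0576 without CW replicate 2 in the comparison with CW.

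Eif3c, another core subunit, rose in ESW against CW. It had 613, 649 and 623 CPM in ESW, 593, 558 and 565 CPM in CW, and 630, 578 and 579 CPM in Control. ESW lay above CW and overlapped Control. Eif3c rose by 0.14 in ESW against CW (SE 0.04, adjusted p = 0.0468), a call lost under 10 of its alternatives, including DESeq2 size factors (adjusted p = 0.0529), upper-quartile scaling (adjusted p = 0.0547) and the loss of ESW replicate 2 or 3, CW replicate 2 or 3 or Control replicate 2, and its log2 change against Control was 0.08 (adjusted p = 0.268). The TPM ratio of Eif3e to Eif3c was 0.650, 0.653 and 0.653 in ESW, 0.823, 0.840 and 0.810 in CW, and 0.731, 0.804 and 0.821 in Control, with all ESW libraries below the rest. Eif3e was called lower in ESW against both other groups and Eif3c higher against CW, so the separation of this ratio repeats those calls. Eif3a, the largest subunit, had log2 changes of -0.04 and 0.01 in ESW against Control and CW (adjusted p = 0.730 and 0.924).

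**Figure D4:**
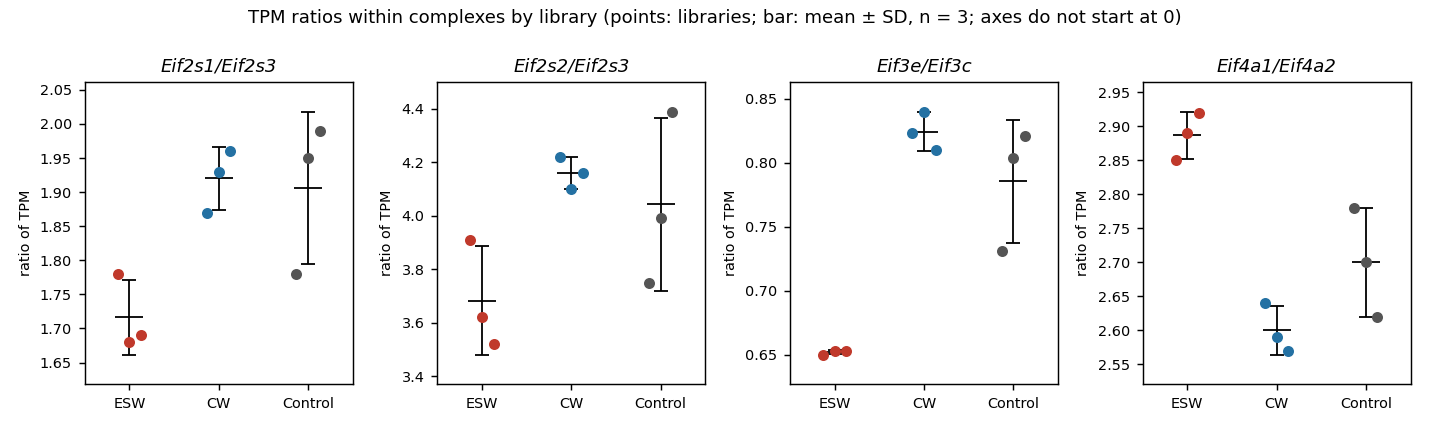
TPM ratio of pairs of factor genes in each library (points) for ESW, CW and Control, with bars for the mean and SD (n = 3); the axes do not start at 0. The Eif3e to Eif3c ratio is 0.650 to 0.653 in ESW, below all other libraries, and the Eif4a1 to Eif4a2 ratio is 2.85 to 2.92 in ESW, above all others. Each ratio holds a gene called in an ESW comparison, so none is independent of those calls. Eif3e was called lower in ESW against CW and Control, and Eif3c higher against CW. Eif4a2 was called lower against Control.

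In the cap-binding machinery, a helicase and a helicase cofactor changed, while the cap-binding protein and the scaffolds did not pass the test. Eif4a2, the minor helicase of eIF4F, had 220, 202 and 193 CPM in ESW, 214, 231 and 238 CPM in CW, and 218, 237 and 239 CPM in Control. One ESW library reached into the Control range. Eif4a2 fell by 0.17 in ESW against Control (SE 0.05, adjusted p = 0.0407), with a log2 change of -0.15 in ESW against CW (adjusted p = 0.0748). In ESW against CW it was called under 6 alternatives, among them DESeq2 (adjusted p = 0.0434), the compared groups only (adjusted p = 0.0424) and no filter on low counts (adjusted p = 0.0133). The fall against Control was lost with transcript length offsets (adjusted p = 0.258), with only mRNA transcripts counted (adjusted p = 0.0655) and without any of ESW replicates 2 and 3, CW replicates 2 and 3 or Control replicates 2 and 3 (adjusted p = 0.0504 to 0.213). The major helicase Eif4a1 averaged 691 ± 31.1 CPM in ESW, 685 ± 14 CPM in CW and 726 ± 19.4 CPM in Control (SD, n = 3 each) and was not called (adjusted p = 0.289 in ESW against Control). The TPM ratio of Eif4a1 to Eif4a2 was 2.85, 2.89 and 2.92 in ESW, 2.64, 2.59 and 2.57 in CW, and 2.78, 2.70 and 2.62 in Control, without overlap between ESW and the rest. Its denominator is the gene called lower in ESW against Control, so this separation is not independent of that call.

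Eif4h, an RNA-binding protein that stimulates these helicases, had 308, 315 and 312 CPM in ESW, 286, 284 and 281 CPM in CW, and 302, 299 and 290 CPM in Control. The 3 groups did not overlap, with ESW highest and CW lowest. Eif4h rose by 0.14 in ESW against CW (SE 0.04, adjusted p = 0.0221), and its log2 change against Control was 0.07 (adjusted p = 0.249). The call was lost with transcript length offsets (adjusted p = 0.0540) and without ESW replicate 2 or 3 or CW replicate 2 or 3 (adjusted p = 0.0780 to 0.0963). Eif4g1, the scaffold of eIF4F, had log2 changes of 0.05 and 0.08 in ESW against Control and CW (adjusted p = 0.493 and 0.193). Eif4g2, a related scaffold for cap-independent initiation and the most abundant gene of the group at 773 TPM, had -0.01 and 0.02 (adjusted p = 0.952 and 0.821). Summed over the 8 genes, the level was 2318.5 ± 43.1 TPM in ESW, 2275 ± 25.8 TPM in CW and 2310.2 ± 37.9 TPM in Control (SD, n = 3 each).

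Eif4e, the cap-binding protein, had 86.5, 91 and 88 CPM in ESW, 90.6, 83.6 and 88.1 CPM in CW, and 97.1, 98.7 and 91.3 CPM in Control. The water groups lay below Control and overlapped each other, and no comparison passed the test, with log2 changes of -0.11 in ESW against Control (adjusted p = 0.126), 0.02 in ESW against CW (adjusted p = 0.841) and -0.13 in CW against Control (adjusted p = 0.301). Its transcripts were divided differently in CW. The transcript of 2395 bases held 40.6%, 38.0% and 35.3% of Eif4e TPM in ESW, 52.5%, 48.4% and 49.1% in CW, and 40.8%, 39.5% and 40% in Control, a description of reads that Salmon divides by estimate.

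Among the inhibitors of eIF4E, Eif4ebp2 rose in ESW against CW. Eif4ebp2 had 87.4, 87.8 and 91.2 CPM in ESW, 79.4, 80.8 and 80.1 CPM in CW, and 87.8, 83.2 and 84.8 CPM in Control. CW lay below both other groups, which overlapped at 87.8 CPM. It rose by 0.15 in ESW against CW (SE 0.04, adjusted p = 0.0276), with a log2 change of 0.06 against Control (adjusted p = 0.405). The call was lost with only mRNA transcripts counted (adjusted p = 0.0536) and without ESW replicate 2 or 3 or any CW library (adjusted p = 0.0636 to 0.152). Eif4ebp1, the main 4E-BP here at 287 TPM, had log2 changes of 0.10 and 0.11 in ESW against Control and CW (adjusted p = 0.179 and 0.144). For Eif4ebp1 over Eif4e, the TPM ratio was 3.29, 3.23 and 3.19 in ESW, 2.85, 2.98 and 3.06 in CW, and 2.90, 2.85 and 3 in Control, with all ESW libraries above the rest.

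The factors of subunit joining did not pass the test. Eif5, the GTPase activator of eIF2, had log2 changes of -0.06 and 0.01 in ESW against Control and CW (adjusted p = 0.302 and 0.868). Eif5b, the GTPase that joins the large subunit, had 0.09 and 0.10 (adjusted p = 0.400 and 0.312), and with transcript length offsets it was called at 0.18 and 0.16 (adjusted p = 0.0343 and 0.0497). Eif6, which keeps the large subunit from joining early, had 0.03 in both (adjusted p = 0.827 and 0.760). Eif5a had 662, 614 and 634 CPM in ESW, 638, 663 and 685 CPM in CW, and 664, 706 and 710 CPM in Control. ESW lay below Control by a narrow margin, with a log2 change of -0.12 (SE 0.04, adjusted p = 0.0672) that passed the threshold under 6 alternatives, among them DESeq2 (adjusted p = 0.0234). Eif5a2, its less expressed paralog at 11.1 TPM, had a log2 change of -0.06 (adjusted p = 0.631).

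On the elongation side the main factor was not called, Eef1b2 fell and Eef2 rose. Eef1a1 averaged 7182.5 ± 366 CPM in ESW, 7305.3 ± 168 CPM in CW and 7339.8 ± 190 CPM in Control (SD, n = 3 each), with log2 changes of -0.03 in ESW against Control (SE 0.04, adjusted p = 0.680) and -0.02 in ESW against CW (SE 0.04, adjusted p = 0.751). Eef1b2, the beta exchange subunit of eEF1B, had 237, 234 and 224 CPM in ESW, 265, 243 and 258 CPM in CW, and 251, 253 and 262 CPM in Control. All ESW libraries lay below the rest. Eef1b2 fell by 0.14 in ESW against Control (SE 0.04, adjusted p = 0.0352) and by 0.14 in ESW against CW (SE 0.04, adjusted p = 0.0375).

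Both calls were lost with transcript length offsets. The effective length of Eef1b2, as Salmon estimated it, was 437, 491 and 453 bases in ESW, 488, 462 and 454 bases in CW, and 505, 474 and 481 bases in Control. With length offsets the log2 change was -0.09 against Control (adjusted p = 0.341) and -0.13 against CW (adjusted p = 0.122). The call against Control was also lost without ESW replicate 2 or 3, CW replicate 3 or Control replicate 2 or 3 (adjusted p = 0.0531 to 0.165), and that against CW without ESW replicate 2 or 3, CW replicate 1 or 3 or Control replicate 2 (adjusted p = 0.0506 to 0.163). The other subunits of the exchange complex were not called. Eef1g had log2 changes of 0.06 and 0.05 in ESW against Control and CW (adjusted p = 0.390 and 0.483). Eef1d, the delta exchange subunit, had -0.06 and -0.05 (adjusted p = 0.426 and 0.525). The TPM ratio of Eef1b2 to Eef1g was 0.623 ± 0.038 in ESW, 0.701 ± 0.021 in CW and 0.693 ± 0.038 in Control (SD, n = 3 each). Summed, the eEF1 genes had 10206.8 ± 173 TPM in ESW, 10400.6 ± 135 TPM in CW and 10358.3 ± 124 TPM in Control (SD, n = 3 each).

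Eef2, the translocase, was the only factor gene called higher in ESW against both CW and Control. It had 2905.9, 2964.7 and 3019.7 CPM in ESW, 2760.3, 2712.5 and 2709.6 CPM in CW, and 2804.9, 2712.3 and 2682.2 CPM in Control. Every ESW library lay above the rest, and CW and Control overlapped. Eef2 rose by 0.12 in ESW against Control (SE 0.03, adjusted p = 0.0355) and by 0.12 in ESW against CW (SE 0.03, adjusted p = 0.0318). Both calls were lost with length offsets (log2 change 0.09, adjusted p = 0.226, and 0.12, adjusted p = 0.0568) and without ESW replicate 2 or 3. The call against Control was lost as well without CW replicate 3 or Control replicate 2 or 3 (adjusted p = 0.0522 to 0.167 over these libraries), and that against CW without CW replicate 2 or 3 (adjusted p = 0.0860 to 0.159). With only the compared groups in the edgeR fit, the call against Control was lost (adjusted p = 0.0636). With only mRNA transcripts counted, the call against CW was lost (adjusted p = 0.0594). Its kinase Eef2k, which inactivates eEF2 by phosphorylation, averaged 30.6 ± 1.7 CPM in ESW, 29.8 ± 2.09 CPM in CW and 29.7 ± 0.974 CPM in Control (SD, n = 3 each) and was not called (adjusted p = 0.716 and 0.787 in the ESW comparisons with Control and CW).

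Messages of elongation factors are known in mammals to start with a run of pyrimidines, the TOP element, through which mTORC1 controls their translation. The 30 bases around the annotated start, 15 on each side, are shown for Eef1a1, Eef1b2 and the eIF2 genes, from RefSeq on GRCr8 along each gene's strand, with CTTTT in capitals. The windows are chr8:88225055-88225084 (minus) for Eef1a1, chr9:72074076-72074105 (plus) for Eef1b2, chrX:62933685-62933714 (minus) for Eif2s3, chr6:103405865-103405894 (plus) for Eif2s1 and chr3:163855556-163855585 (minus) for Eif2s2.
Eef1a1: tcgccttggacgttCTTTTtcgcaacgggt
Eef1b2: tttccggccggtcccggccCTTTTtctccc
Eif2s3: ggcggcagccgagcattttcCTTTTctctc
Eif2s1: cggcgtgggaccctagttcgggattcacac
Eif2s2: tgctgtgagaggtatcggtaggagctacgc

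CTTTT stands in the windows of Eef1a1, Eef1b2 and Eif2s3 and not in those of Eif2s1 and Eif2s2. Of 66 members with a window, 8 hold it on the transcript's strand, 12.1%, against 3.3% of 27457 genes, which again were not limited to tested genes. The 8 include Eef1a1 and its near copies Eef1a1l1 and Eef1a1l2, which are not independent sequences. Not every elongation factor gene with a window holds CTTTT. A match is not shown to be a TOP element.

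Among called factor genes, the near copies of Eef1a1 had the widest changes. Eef1a1l1 had 86.3, 88.6 and 69.2 CPM in ESW, 73.6, 55.8 and 48.8 CPM in CW, and 94.6, 83.9 and 81.9 CPM in Control. CW was below Control without overlap and overlapped ESW. Eef1a1l1 fell by 0.56 in CW against Control (SE 0.11, adjusted p = 0.0315), the only factor gene that edgeR called there, and rose by 0.46 in ESW against CW (SE 0.11, adjusted p = 0.0116). DESeq2 did not call either (adjusted p = 0.130 and 0.0881), and the call in CW against Control was lost without CW replicate 2 or 3 or Control replicate 1 or 2 (adjusted p = 0.0833 to 0.266), with length offsets (adjusted p = 0.260) and with only mRNA transcripts counted (adjusted p = 0.0518), and that in ESW against CW without ESW replicate 2 or CW replicate 2 or 3 (adjusted p = 0.0696 to 0.0819).

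Eef1a1l2 had 21.8, 21.3 and 18.6 CPM in ESW, 17.2, 15.3 and 16.9 CPM in CW, and 21.1, 19.8 and 21.0 CPM in Control. It rose by 0.33 in ESW against CW (SE 0.07, adjusted p = 0.0107), a call lost without ESW replicate 2 (adjusted p = 0.0530) or CW replicate 2 (adjusted p = 0.0791), and its log2 change in CW against Control was -0.33 (adjusted p = 0.0868). DESeq2 (adjusted p = 0.0169) and edgeR with no filter on low counts (adjusted p = 0.0019) called this gene lower in CW against Control. Salmon divides the reads of Eef1a1 and these copies by estimate, and Eef1a1l1 was given 25907 and Eef1a1l2 6566 reads over all libraries, against 2463222 for Eef1a1, so the values of the copies are uncertain. With the reads of Eef1a1 and its copies summed, Eef1a1 had log2 changes of -0.03 in ESW against Control (adjusted p = 0.668), -0.02 in ESW against CW (adjusted p = 0.809) and -0.01 in CW against Control (adjusted p = 0.949).

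The enzymes that modify the elongation factors were low, from 1.33 TPM for Eef1akmt3 to 41.5 TPM for Eef1akmt2, and none of the 6 passed the test. Several of the uncalled members at 1 CPM or more with the largest changes in the ESW comparisons were of this group. Eef1akmt3, a lysine methyltransferase of eEF1A, had log2 changes of -0.40 and -0.41 in ESW against Control and CW (SE 0.26 and 0.26, adjusted p = 0.378 and 0.367), Eef2kmt, which methylates eEF2, had -0.31 against Control (adjusted p = 0.346), and Eef1akmt1 had -0.21 in ESW against CW (adjusted p = 0.0964). Eif4g2l1 had 1.63, 1.42 and 2.26 CPM in ESW, 1.07, 5.25 and 0.540 CPM in CW, and 4.23, 2.03 and 1.98 CPM in Control, with groups that overlapped. Its log2 change in ESW against Control was -0.63 (adjusted p = 0.477), and it was called with no filter on low counts (adjusted p = 0.0209).

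Effective length, as Salmon estimated it and averaged over the libraries, was set beside the changes, since several called genes are short. Across the 68 members at 1 CPM or more, mean effective length and log2 change had a Spearman rho of 0.267 in ESW against Control, 0.454 in ESW against CW and -0.192 in CW against Control, against 0.088, 0.067 and 0.077 across 12172 genes. Effective length is not the annotated length of a transcript. These are descriptions across genes of the same 9 libraries. Effective lengths differed between libraries, as for Eef1b2 above, and their part in this was not tested beyond the fit with length offsets. With length offsets the calls of Eif3e held (adjusted p = 0.0322 against Control and 0.0138 against CW). In ESW against CW the calls of Eif3c (adjusted p = 0.0256), Eif4ebp2 (adjusted p = 0.0411), Eef1a1l1 (adjusted p = 0.0275) and Eef1a1l2 (adjusted p = 0.0240) also held.

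Outside the Eif and Eef families, 57 of 58 other translation genes listed by textbook role were tested. In ESW against Control 2 of 57 rose and 3 fell, where 8.04% of all genes were called, and in ESW against CW 0 rose and 2 fell, where 8.14% were called. In CW against Control, where edgeR called 0.177% of all genes, the lowest adjusted p among the 57 was 0.186. At an unadjusted p under 0.05 the 57 genes counted 22 against Control, where 22.8% of all genes passed, 15 in ESW against CW, where 23.9% passed, and 7 in CW against Control, where 9.87% passed. Besides Gcn1 and Ddit3, the genes that changed against Control were Tsc2, an inhibitor of mTORC1, Paip2, an inhibitor of poly(A)-binding protein, and Mtif2, the mitochondrial initiation factor. Tsc2 had 54.4, 51.6 and 55.7 CPM in ESW, 48.0, 53.4 and 52.9 CPM in CW, and 45.2, 47.0 and 46.2 CPM in Control, and rose by 0.22 against Control (SE 0.05, adjusted p = 0.00927), a call lost without ESW replicate 3 (adjusted p = 0.0692). Paip2 fell by 0.16 (SE 0.04, adjusted p = 0.0291) with 49.9 ± 1.34 CPM in ESW and 55.7 ± 0.762 CPM in Control, and Mtif2 fell by 0.41 (SE 0.10, adjusted p = 0.0130) with 7.18 ± 0.225 CPM in ESW and 9.51 ± 0.664 CPM in Control (SD, n = 3 each). The Paip2 call was lost with length offsets (adjusted p = 0.219) and without ESW replicate 2 or 3 or any Control library (adjusted p = 0.0523 to 0.129). The Mtif2 call was lost with length offsets (adjusted p = 0.0887) and without ESW replicate 2 or 3 or Control replicate 2 (adjusted p = 0.0508 to 0.0730). The other 10 of 11 mTORC1 pathway genes, Mtor among them with a log2 change of 0.11 (adjusted p = 0.235), all 9 hypusine and diphthamide enzymes and the 7 tested genes of reinitiation, termination, rescue and recycling were not called in ESW against Control.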

How the data were processed

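Per the labels' protocols, RNeasy Plus Mini columns gave the RNA of the 9 H9c2(2-1) libraries, 3 per group, and a NovaSeq X Plus read them. Salmon 1.10.3 and an unnumbered DESeq2 are named in the submitters' processing notes. Per the file headers, each deposited table gives an estimated count, a TPM and an effective length (another value, in bases) for 114122 transcripts. The bias options, genome build and strand setting are not given in the sources used here.

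Transcripts were matched to a RefSeq gene table of GRCr8, and the deposited estimated counts and TPM were summed over 36856 genes. Counts were rounded and tested with edgeR 4.0.16 in R 4.3.3 (quasi-likelihood, TMM, filterByExpr, Benjamini-Hochberg over 14706 genes), with all 9 libraries in 1 model, 6 residual degrees of freedom and a common biological coefficient of variation of 4.84%. Totals ran from 26748673 to 48574618 reads. A gene was called under an adjusted p of 0.05. Named genes were all called members, the 3 uncalled members with the largest change at 1 CPM or more in each comparison, and a panel of central factors (Eif1ax, Eif3el1, Atf4 and Mtor were named after their values were seen). The members, roles and lists were chosen with earlier results of these data known. Alternatives covered scaling, filters, DESeq2 1.42.0, limma-voom of limma 3.58.1, length offsets, transcript types, the samples in the fit, a replicate block and each library left out; 3 sums over near copies, and these alternatives for the called genes of the pathway list, were added after seeing the data. The code was tested on simulated data. An item withheld for evaluation is not reported here.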

Additional observations from a re-analysis of the deposited data

How the results depend on the processing

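Of 18 called results on factor genes, 3 held under every alternative run (Eif2s1 in both ESW comparisons and Eif2s2 in ESW against CW), 15 were lost at least once, and 0 changed sign. Of 90 uncalled results on named genes, 83 stayed uncalled throughout. With average transcript length offsets, 440 genes were called in ESW against Control and 2 in CW against Control, with 3 and 0 factor genes. Counting mRNA only gave 17 genes and 0 factor genes in CW against Control, no filter 273 and 2, DESeq2 80 genes, and the compared groups only 16. Leaving out 1 library in turn gave 394 to 1544 genes in ESW against Control, 314 to 1486 in ESW against CW and 5 to 51 in CW against Control, with 2 to 10, 3 to 11 and 0 to 1 factor genes. The lowest gene counts came without ESW replicate 3 in both ESW comparisons and without CW replicate 3 in CW against Control. The causes were not tested.

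With a replicate block, 5 factor genes of 971 genes were called in ESW against Control, 8 of 949 in ESW against CW and 1 of 25 in CW against Control. Deviations of same-numbered libraries correlated at -0.177 to 0.115, which does not settle whether the numbers pair the samples. With the block the adjusted p of Eef1b2 was 0.0529 and that of Eif4a2 0.0720 in ESW against Control, and in ESW against CW that of Eef1b2 was 0.0568 and that of Eif3c 0.0577.

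Sums were also taken on CPM per kb of effective length, here from plain library totals without TMM factors. On this measure in place of TPM, the log2 ratio of summed levels in ESW against CW and ESW against Control was -0.076 and -0.052 for eEF1, -0.068 and -0.05 for eIF2B, -0.05 and -0.013 for eIF3, and -0.022 and -0.025 for eIF4F and its helpers. On TPM these sums gave -0.027 and -0.021, -0.018 and -0.019, -0.001 and 0.018, and 0.027 and 0.005. Depth limits the lowest members: Eef1a2 and Eif4a1l rested on 110 and 80 reads over all libraries.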
